A study of Mus musculus with 9 samples.

Results

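Matricellular proteins are secreted into the extracellular matrix and act mainly as signals and adaptors between matrix fibers, growth factors and cell receptors, rather than as load-bearing fibers. In skeletal muscle most of them are sparse at rest, appear during repair and remain in the matrix of dystrophic muscle. They are made largely by fibroblasts and their activated, contractile form, the myofibroblast, and several are also made by macrophages, tendon cells or regenerating fibers. The 10 genes described here encode tenascin C (Tnc), periostin (Postn), fibronectin (Fn1), cartilage intermediate layer protein (Cilp), a C1q and TNF related protein (C1qtnf3), an olfactomedin-like protein (Olfml2b), osteonectin (Sparc) and 3 thrombospondins (Thbs1, Thbs2 and Thbs4). They were chosen by name, with earlier results of these data known. Each was read from the 1 transcript cluster that carries its symbol alone, out of 30120 genes with such a cluster and 65672 clusters. Of the 10, Tnc, Postn, Fn1, Cilp, C1qtnf3 and Olfml2b stand in the study's own list of myofibroblast genes higher with the myeloid knockout. Of these, 5 are listed there against both other groups, and Fn1 only against MCK-MRcko/mdx. Their differences between LysM-MRcko/mdx and the other groups were therefore used to choose them and are given below as a description, without a p-value.

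The mice lacked dystrophin (mdx) and carried floxed alleles of the mineralocorticoid receptor gene (MR flox/flox), on a mixed C57BL6/C57BL10 strain, and whole quadriceps was taken at 8 weeks of age. LysM-MRcko/mdx mice carried 1 copy of LysM-Cre, which is driven by a promoter of the myeloid lineage (2 males and 1 female), and MCK-MRcko/mdx mice carried 1 copy of MCK-Cre, driven by a promoter of muscle fibers (1 male and 2 females). Cre-/mdx controls had the floxed alleles and no Cre (2 males and 1 female). RNA of each of the 9 mice was hybridised to 1 microarray, and values are log2 signals, so that a difference of 1 is 2-fold. Because the muscle was homogenized whole, more cells of a type and more RNA per cell cannot be told apart.

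Array medians lay between 4.70 and 4.78, and every member lay above them on each array. The targeted gene, Nr3c2, measured 6.89 to 6.96 in LysM-MRcko/mdx, 6.74 to 6.87 in MCK-MRcko/mdx and 6.89 to 7.12 in Cre-/mdx quadriceps, a whole muscle in which cells without Cre keep the gene. Markers of mature muscle fibers averaged 18.09 to 18.18 in LysM-MRcko/mdx, 18.07 to 18.21 in MCK-MRcko/mdx and 18.20 to 18.34 in Cre-/mdx quadriceps. Of these markers, Acta1, Myh4 and Tnnt3 sat at the top value of 19.93 on every array. Their mean can therefore not show whether fiber content was the same in all groups. In limma 0 clusters passed an adjusted p of 0.05 in any of the 3 comparisons, although at an unadjusted p under 0.05 there were 4069 between the myeloid knockout and controls, 3640 between the myofiber knockout and controls, and 4679 between the knockouts. A gene is called changed below where it differed at least 2-fold with an unadjusted p under 0.05. The comparisons share arrays, so they are not independent of each other. With 3 mice against 3 the exact two-sided permutation test cannot go below 0.1.

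The promoters of Tnc, Postn, Cilp and C1qtnf3, which are 4 of the 6 genes of that list, are shown because 3 of them hold the same element at nearly the same place. Each line gives the 100 bases before a RefSeq transcript start on the gene's strand. Tnc and Postn each have another RefSeq start, without the element at this place, and the start shown is the one with it. Sequences are in GRCm38.p6 coordinates, with a TATA element (TATAAN) in capitals where it starts 36 to 22 bases before the start.
Tnc promoter, minus strand, chr4:64046937-64047036: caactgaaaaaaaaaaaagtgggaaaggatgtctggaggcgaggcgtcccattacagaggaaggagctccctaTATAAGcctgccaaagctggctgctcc
Postn promoter, plus strand, chr3:54361007-54361106: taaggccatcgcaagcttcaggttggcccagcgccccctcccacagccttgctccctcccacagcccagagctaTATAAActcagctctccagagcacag
Cilp promoter, plus strand, chr9:65265080-65265179: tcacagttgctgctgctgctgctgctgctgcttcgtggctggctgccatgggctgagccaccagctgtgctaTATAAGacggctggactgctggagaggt
C1qtnf3 promoter, plus strand, chr15:10952232-10952331: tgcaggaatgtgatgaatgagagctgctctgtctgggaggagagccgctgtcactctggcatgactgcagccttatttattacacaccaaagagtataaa
The element began at position -27 from the start in Tnc, -26 in Postn and -28 in Cilp, and it stood at this place in 3 of the 8 members with a RefSeq window, against 3.84% of 27025 genes, counting a gene if any of its starts had it. In the whole windows of 300 bases, searched on both strands, the SMAD motif GTCTG was found in 7 of 8 members against 53.2% of genes, the TEAD motif GGAATG in 2 of 8 (C1qtnf3 and Thbs4) against 16.6%, the AP-1 motif TGANTCA in 0 of 8 against 8.97%, and the steroid receptor element (GNACA and TGTNC with 3 bases between them) in 0 of 8 against 0.537%. These motifs were picked with the expression values known, and a match describes letters only.

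Tenascin C had the largest difference of the 10 genes. It is a large glycoprotein of several arms that is found at the junction of muscle and tendon in healthy muscle and reappears in damaged muscle. Tnc measured 13.80, 12.54 and 12.28 in LysM-MRcko/mdx quadriceps, against 9.76, 9.79 and 10.55 in MCK-MRcko/mdx and 9.99, 8.84 and 10.35 in Cre-/mdx quadriceps. All 3 LysM-MRcko/mdx mice lay above all other mice, with a gap of more than 1 unit between the lowest of them and the highest of the rest, while the other groups overlapped each other. The difference to Cre-/mdx was 3.15 with a standard error of 0.53, or 8.86-fold, and that to MCK-MRcko/mdx was 2.84, or 7.16-fold. LysM-MRcko/mdx replicate 1 stood 0.93 above its group mean, and without it the differences were 2.68 and 2.38.

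Periostin, which carries fasciclin domains and helps collagen become crosslinked, measured 17.51, 17.87 and 17.45 in LysM-MRcko/mdx, against 16.21, 16.24 and 16.51 in MCK-MRcko/mdx and 15.76, 14.94 and 16.47 in Cre-/mdx quadriceps. The LysM-MRcko/mdx mice again lay wholly above the others, and the highest control mouse reached the level of the MCK-MRcko/mdx mice. The means were 17.61 ± 0.23, 16.32 ± 0.17 and 15.72 ± 0.77 (SD, n = 3 each), so Postn was 3.7-fold higher in LysM-MRcko/mdx than in Cre-/mdx (difference 1.89, standard error 0.36) and 2.45-fold higher than in MCK-MRcko/mdx. Fibronectin, which cells assemble into fibrils that integrins bind, measured 16.79, 16.68 and 17.55 in LysM-MRcko/mdx, 15.53, 15.76 and 15.30 in MCK-MRcko/mdx, and 15.91, 14.19 and 16.11 in Cre-/mdx quadriceps. No LysM-MRcko/mdx mouse overlapped either other group, but the Cre-/mdx mice were spread over 1.92 units. The Fn1 difference to Cre-/mdx was 1.60 (standard error 0.52, 3.04-fold), and it was 1.00, just under 2-fold, without Cre-/mdx replicate 2. Its call was lost as well when LysM-MRcko/mdx replicate 3 was left out (1.33). The study's own list, in contrast, marks Fn1 as lacking a 2-fold change in this comparison. To MCK-MRcko/mdx the Fn1 difference was 1.48 (2.78-fold), and its call was lost when LysM-MRcko/mdx replicate 3 (1.20) or replicate 1 or 3 of MCK-MRcko/mdx (1.48 and 1.36) was left out.

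Cilp, a secreted protein of cartilage and heart that binds transforming growth factor beta, measured 13.48, 13.51 and 13.89 in LysM-MRcko/mdx, against 11.66, 11.69 and 11.87 in MCK-MRcko/mdx and 12.18, 11.50 and 12.55 in Cre-/mdx quadriceps. The LysM-MRcko/mdx mice stood apart, and the MCK-MRcko/mdx mice lay within the range of the controls. Cilp was 2.93-fold higher in LysM-MRcko/mdx than in Cre-/mdx (difference 1.55, standard error 0.26) and 3.7-fold higher than in MCK-MRcko/mdx. C1qtnf3, a secreted relative of adiponectin, measured 11.54, 11.08 and 11.38 in LysM-MRcko/mdx, 8.82, 9.41 and 9.72 in MCK-MRcko/mdx, and 9.22, 8.94 and 9.05 in Cre-/mdx quadriceps. It had the narrowest control range of the 10 genes together with Thbs2, at 0.28, and leaving out any 1 mouse moved its difference to Cre-/mdx only between 2.16 and 2.39, around 2.26 (4.8-fold). Olfml2b, a secreted glycoprotein with an olfactomedin domain, measured 11.50, 11.29 and 11.35 in LysM-MRcko/mdx, 8.66, 10.26 and 9.47 in MCK-MRcko/mdx, and 9.94, 8.81 and 10.61 in Cre-/mdx quadriceps. Its LysM-MRcko/mdx mice were within 0.21 of each other and above all others, whereas the MCK-MRcko/mdx mice spread over 1.60 and the controls over 1.80. The Olfml2b difference to Cre-/mdx was 1.59 (standard error 0.53, 3.02-fold), and it was not called when replicate 2 of the controls (1.11) or replicate 1 of LysM-MRcko/mdx (1.53) was left out.

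**Figure D1:**
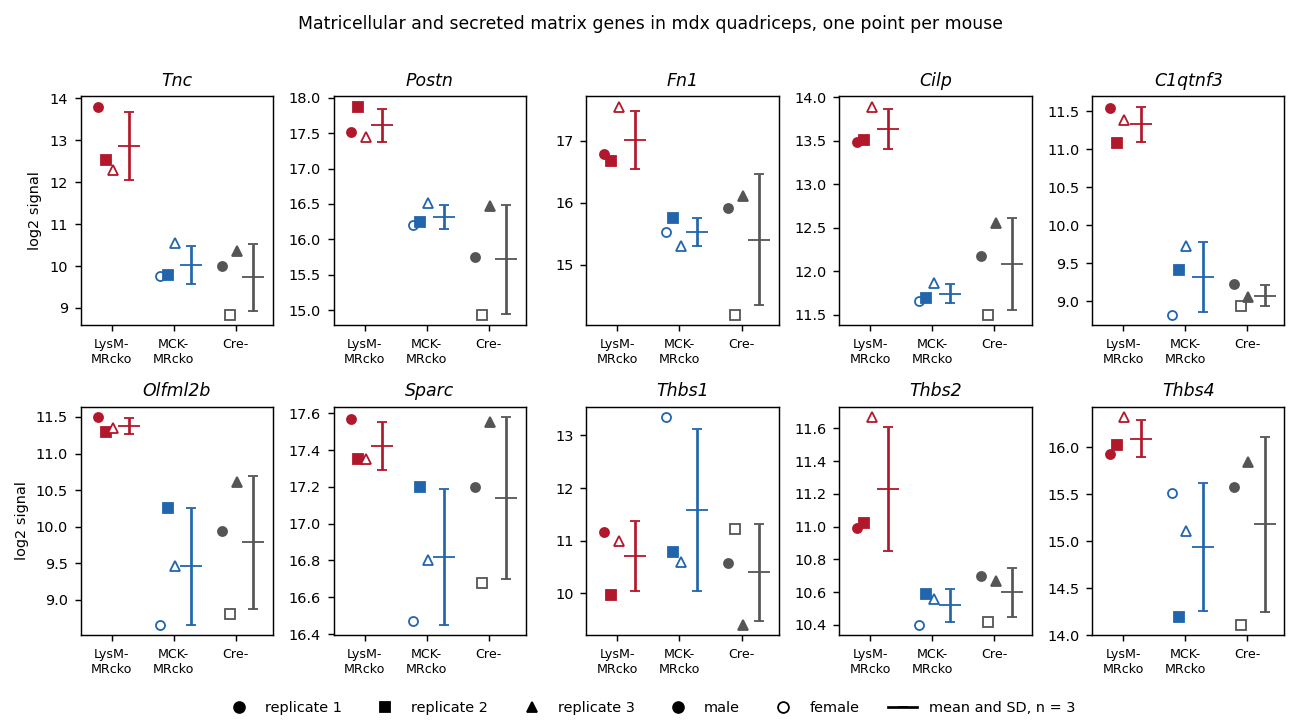
Log2 signal of the 10 genes (1 panel each, with its own axis) in the LysM-MRcko/mdx, the MCK-MRcko/mdx and the Cre-/mdx group. Each point is 1 mouse, its shape gives the replicate number and filled or open the sex, and the bars give the mean and SD of 3 mice. In Tnc, Postn, Fn1, Cilp, C1qtnf3, Olfml2b, Thbs2 and Thbs4 all LysM-MRcko/mdx mice lie above all other mice.

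The other 4 genes are not in that list of the study. Sparc, a collagen-binding protein of basement membranes and repairing tissue, measured 17.57, 17.35 and 17.35 in LysM-MRcko/mdx, against 16.47, 17.20 and 16.80 in MCK-MRcko/mdx and 17.20, 16.68 and 17.55 in Cre-/mdx quadriceps. Its LysM-MRcko/mdx mice lay above every MCK-MRcko/mdx mouse and overlapped the upper part of the control range. In limma the difference was 0.28 to Cre-/mdx (standard error 0.26, adjusted p = 0.84) and 0.60 to MCK-MRcko/mdx (standard error 0.26, adjusted p = 0.70), and without Cre-/mdx replicate 2 the first was 0.05.

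Thrombospondin 2, which restrains vessel growth and clears matrix proteases, measured 10.99, 11.02 and 11.67 in LysM-MRcko/mdx, against 10.40, 10.59 and 10.56 in MCK-MRcko/mdx and 10.70, 10.42 and 10.67 in Cre-/mdx quadriceps. The LysM-MRcko/mdx mice were above all others, by less than 2-fold. The limma difference was 0.63 to Cre-/mdx (1.55-fold, standard error 0.19, unadjusted p = 0.012, adjusted p = 0.78) and 0.71 to MCK-MRcko/mdx (1.64-fold, unadjusted p = 0.0069, adjusted p = 0.58), and without LysM-MRcko/mdx replicate 3 these were 0.41 and 0.49. Thrombospondin 4, a protein of tendon and of the attachments of muscle fibers, measured 15.93, 16.02 and 16.32 in LysM-MRcko/mdx, 15.51, 14.19 and 15.11 in MCK-MRcko/mdx, and 15.58, 14.11 and 15.84 in Cre-/mdx quadriceps. The LysM-MRcko/mdx mice lay above all others, the lowest of them only just above the highest control, while MCK-MRcko/mdx lay inside the control range. In limma Thbs4 differed by 0.91 from Cre-/mdx (1.88-fold, standard error 0.51, adjusted p = 0.80), or 0.38 without Cre-/mdx replicate 2, and by 1.15 from MCK-MRcko/mdx (2.22-fold, unadjusted p = 0.059, adjusted p = 0.71).

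Thrombospondin 1, which activates latent transforming growth factor beta and binds CD47 and CD36, had the widest spread within groups of the 10 genes (pooled SD 1.1). It measured 11.17, 9.96 and 11.00 in LysM-MRcko/mdx, against 13.35, 10.79 and 10.59 in MCK-MRcko/mdx and 10.57, 11.22 and 9.40 in Cre-/mdx quadriceps. All groups overlapped, and MCK-MRcko/mdx replicate 1 stood 1.77 above its group mean. The limma difference was 0.31 between LysM-MRcko/mdx and Cre-/mdx (adjusted p = 0.96) and 1.18 between MCK-MRcko/mdx and Cre-/mdx (standard error 0.83, adjusted p = 0.85), and the second was 0.29 without that 1 mouse. In each group the mouse with the highest Thbs1 was also the one with the highest mean of 9 neutrophil markers. That mean was 6.82 in LysM-MRcko/mdx replicate 1 against 5.79 and 5.94 in the rest of its group, 6.95 in MCK-MRcko/mdx replicate 1 against 5.81 and 5.94, and 7.34 in Cre-/mdx replicate 2 against 5.25 and 5.53. Single markers differed in this. S100a8, S100a9 and Mmp8 were highest in each of these mice. Ly6g was instead the lowest of its group in MCK-MRcko/mdx replicate 1 (4.41) and Cre-/mdx replicate 2 (4.68). Ltf (4.17) and Ngp (4.03) were also lowest in Cre-/mdx replicate 2, and Retnlg (8.10) in LysM-MRcko/mdx replicate 1. The part of neutrophils in the Thbs1 values was not tested.

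Counted over the 10 genes, 10 had a positive difference between LysM-MRcko/mdx and Cre-/mdx, where 47.1% of all clusters did, with a median of 1.57 against 0.00 over all clusters. Of the 10, 6 were changed, where 0.376% of all clusters were, and 8 had no overlap between groups with LysM-MRcko/mdx above, where 3.29% of all clusters did. Because Tnc, Postn, Cilp, C1qtnf3 and Olfml2b were chosen on this comparison, and Fn1 on the same LysM-MRcko/mdx mice against MCK-MRcko/mdx, the counts describe the choice. Against MCK-MRcko/mdx 9 of 10 were higher in LysM-MRcko/mdx (47.8% of all clusters), with a median of 1.38, 6 were changed against 0.429% of all clusters, and 9 lay wholly above against 3.72%. The 6 changed genes are all in the study's list for this comparison too, so these counts also describe the choice. Between MCK-MRcko/mdx and Cre-/mdx 5 differences were positive, where 47.3% of all clusters were, and 5 negative, with a median of 0.02. None of the 10 was changed, at a background of 0.321% in limma, and 0 had an unadjusted p under 0.05, where 3640 of 65672 clusters had. None had groups that did not overlap, at a background of 3.39% above and 2.81% below. For 10 genes these counts of 0 are near the shares over all clusters and are no result about the genes.

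The single differences between MCK-MRcko/mdx and Cre-/mdx in limma were 0.31 for Tnc (95% interval -0.95 to 1.56, adjusted p = 0.94), 0.60 for Postn (-0.25 to 1.44, adjusted p = 0.84) and 0.13 for Fn1 (-1.09 to 1.35, adjusted p = 0.99). C1qtnf3 had 0.25 (-0.31 to 0.80, adjusted p = 0.87), while Cilp had -0.34 (-0.95 to 0.28, adjusted p = 0.85) and Olfml2b -0.32 (-1.58 to 0.93, adjusted p = 0.94). These intervals include 0 for each gene, and for Tnc, Postn, Fn1 and Olfml2b they also include a 2-fold change in at least 1 direction, so a change of that size was not excluded at this sample number. Single mice moved these values. Without Cre-/mdx replicate 2, Cilp was at -0.62 (standard error 0.17) and Postn at 0.21, and without Cre-/mdx replicate 3 they were at -0.10 and 0.97. C1qtnf3 was at 0.49 (standard error 0.17) without MCK-MRcko/mdx replicate 1 and at 0.04 without MCK-MRcko/mdx replicate 3. By group means, LysM-MRcko/mdx was highest in 9 of the 10 genes, with MCK-MRcko/mdx second in 4 of them (Tnc, Postn, Fn1 and C1qtnf3) and Cre-/mdx second in 5 (Cilp, Olfml2b, Sparc, Thbs2 and Thbs4). MCK-MRcko/mdx was highest for Thbs1.

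**Figure D2:**
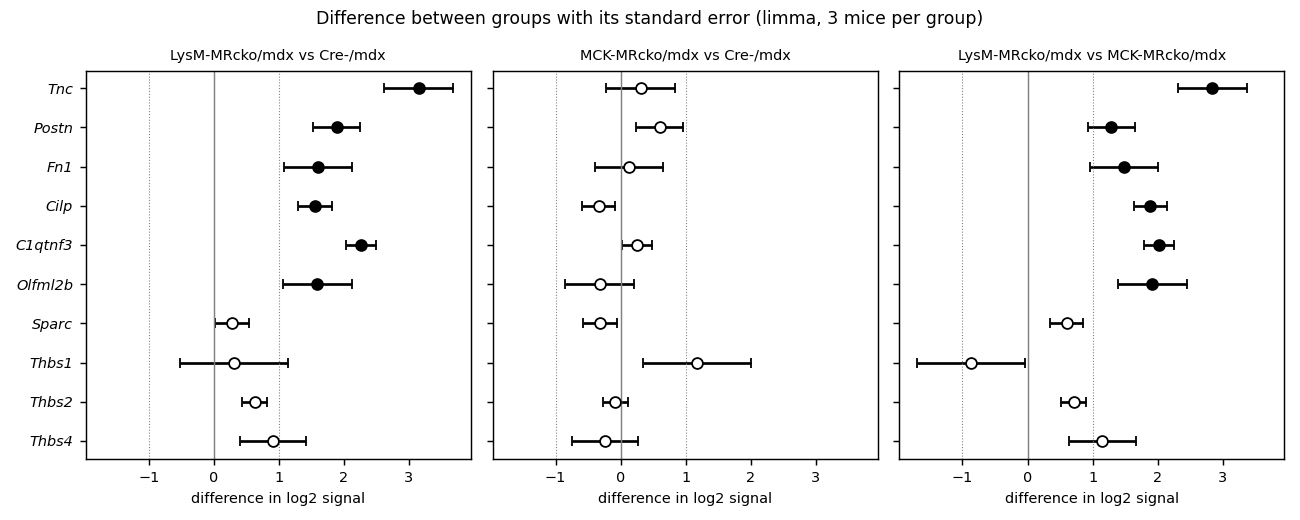
Difference in log2 signal of the 10 genes for the 3 comparisons named above the panels (first group minus second). Points are limma estimates from 3 mice per group, bars are 1 standard error, filled points are changed (at least 2-fold, unadjusted p under 0.05), and dotted lines mark 2-fold. The filled points are the 6 genes of the study's list, in both comparisons with LysM-MRcko/mdx, and none is filled for MCK-MRcko/mdx against Cre-/mdx.

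Mice of 1 group differed from each other in several genes at once. Cre-/mdx replicate 2, the female control, had the lowest value of its group in 9 of the 10 genes and the highest in Thbs1, where 28.0% of the 32837 clusters with a mean above the median of all clusters had their lowest control value in this mouse. Its deviations from the control mean ran from -1.21 (Fn1) to 0.82 (Thbs1), with a median of -0.68. Its mean of 7 fibrillar collagen genes was 9.91, against 10.95 and 11.02 in the other controls, and that of 8 tendon markers was 9.14, against 9.96 and 9.85. Its mean of 6 adipocyte markers was higher, at 11.62 against 10.01 and 9.22. The part of these in the values of the 10 genes was not tested. Cre-/mdx replicate 3 was the highest control in 7 genes (background 30.1%). MCK-MRcko/mdx replicate 1 was the lowest of its group in 7 genes (background 21.3%) but the highest in Thbs1 and Thbs4 (background 28.4%). Without Cre-/mdx replicate 2, 4 of the 10 genes were changed between LysM-MRcko/mdx and Cre-/mdx (Tnc, Postn, Cilp and C1qtnf3), where 0.55% of all clusters were, at 1.26 for Cilp and 1.50 for Postn.

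**Figure D3:**
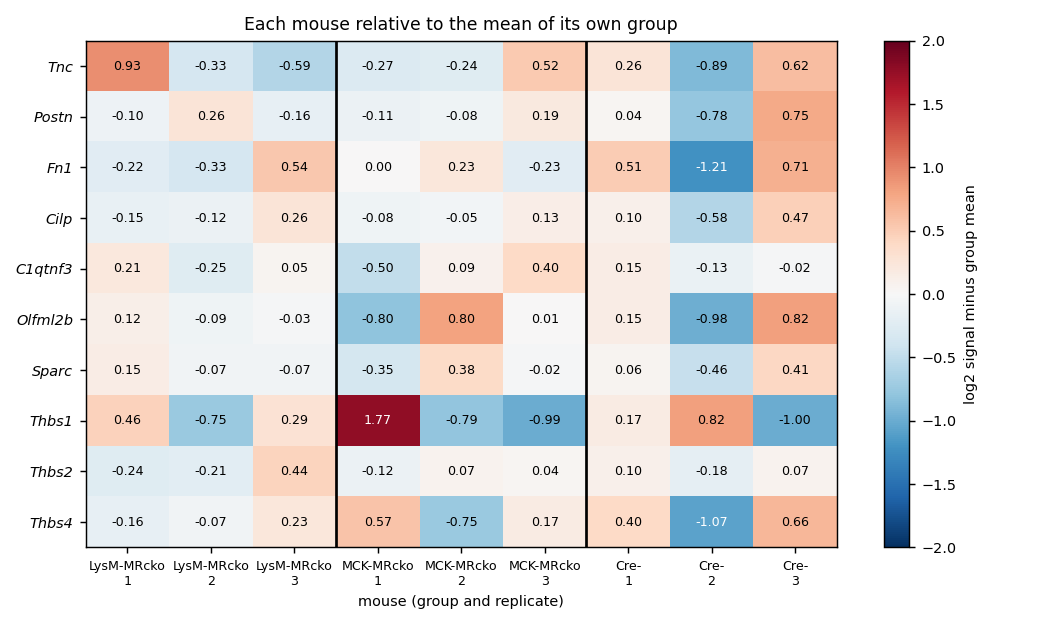
Log2 signal of each gene (rows) in each mouse (columns) minus the mean of the mouse's own group. Numbers in the cells are those deviations, with red above and blue below the group mean. The column of Cre-/mdx replicate 2 is blue for 9 genes and red for Thbs1 (0.82), and the highest cell is Thbs1 in MCK-MRcko/mdx replicate 1 (1.77).

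Co-variation within groups was measured after subtracting each group's mean, since the LysM-MRcko/mdx mice stand apart and would set a correlation over all mice. Of the 45 pairs of genes 34 correlated positively, with a median Pearson r of 0.46. None passed an adjusted p of 0.05 in exact permutation within groups, and 3 had an unadjusted p under 0.05, where the arrangements allow no p below 0.0046. The closest pair was Olfml2b and Sparc, with r = 0.99 and Spearman's rho = 0.98 (n = 9, exact permutation p = 0.0093 for each, adjusted p = 0.42 and 0.39 over 45 pairs). Leaving out the 2 mice farthest from the median gave r = 0.98, removing sex as well as group gave 0.98, and the 6 mice of the MCK-MRcko/mdx and Cre-/mdx groups alone gave 0.97. Thbs1 correlated positively with none of the other 9 genes (median r of -0.47), and it was lowest with Olfml2b at r = -0.76 and rho = -0.72 (n = 9, exact permutation p = 0.12 and 0.14, adjusted p = 0.42 and 0.43). Among the 36 pairs without Thbs1, 34 were positive, with a median of 0.55. Much of this rested on Cre-/mdx replicate 2: without it the median was 0.13 over all pairs and 0.18 over pairs without Thbs1. For the 9 pairs with Thbs1 the median without this mouse was -0.31, and 2 of them were positive. Over all 9 mice Thbs1 and Sparc had r = -0.71 (exact permutation p = 0.16, adjusted p = 0.42).

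**Figure D4:**
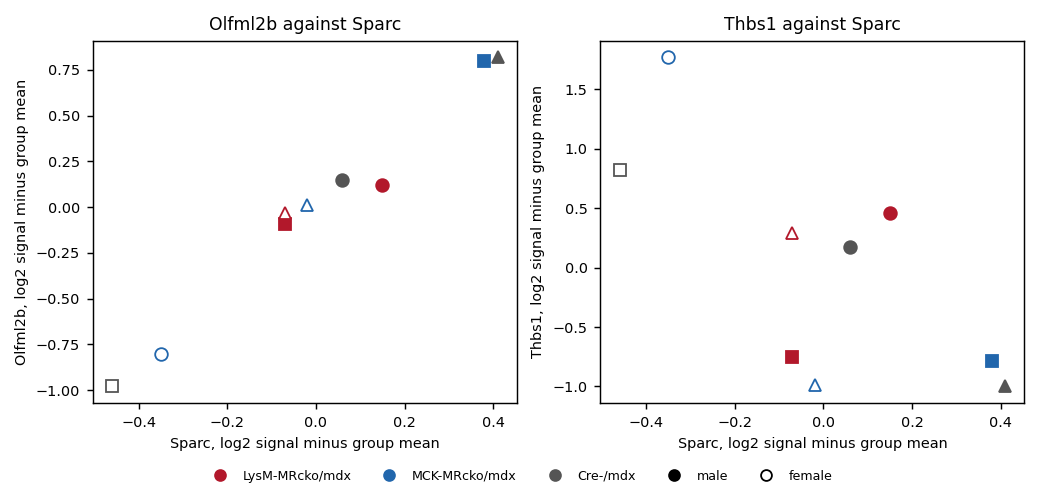
Deviation from the group mean in log2 signal for Olfml2b (left) and Thbs1 (right) against that of Sparc. Each point is 1 of 9 mice, coloured by group, with filled symbols for males and open ones for females. Olfml2b follows Sparc closely (r = 0.99). The highest Thbs1 points, MCK-MRcko/mdx replicate 1 (1.77) and Cre-/mdx replicate 2 (0.82), have low Sparc. LysM-MRcko/mdx replicate 1 is instead the highest of its group in both genes (0.46 in Thbs1, 0.15 in Sparc).

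Sex differed between groups and was fitted as a covariate. In limma with group and sex, 8 of the 10 genes were lower in females than in males, with 0 at an adjusted p under 0.05 and 2 at an unadjusted p under 0.05. These were Olfml2b, at -0.90 female minus male (standard error 0.33, unadjusted p = 0.035, adjusted p = 0.87), and Sparc, at -0.46 (standard error 0.15, unadjusted p = 0.023, adjusted p = 0.87). Thbs1 had the opposite sign, at 0.95 (standard error 0.68, adjusted p = 0.87). Over all clusters 6 had an adjusted p under 0.05 for sex. The shares lower in females and at an unadjusted p under 0.05 were not counted over all clusters. Whether 8 and 2 of the 10 genes exceed those shares is therefore not known. The 4 females include both Cre-/mdx replicate 2 and MCK-MRcko/mdx replicate 1, so sex and these mice cannot be told apart among the controls. With sex in the fit the same 6 genes were changed in both comparisons with LysM-MRcko/mdx.

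For relatives of these genes the counts were mostly 0, which is near the share over all clusters (0.376%) and is no result about these lists. Of the tenascins Tnr, Tnxb and Tnn, Tnr and Tnn lay below the median of every array. Of these 3, 0 were changed between LysM-MRcko/mdx and Cre-/mdx, with a median of 0.06, and 0 of 7 other SPARC family genes, with a median of 0.01. The same held for the remaining thrombospondins (0 of 2, median 0.38), olfactomedin proteins (0 of 6, -0.02) and C1q and TNF related proteins (0 of 7, -0.01), and for Cilp2, the close relative of Cilp, at -0.08. An exception was Tgfbi, a fasciclin relative of periostin induced by transforming growth factor beta. It measured 14.08, 13.22 and 13.67 in LysM-MRcko/mdx, 13.71, 13.23 and 13.22 in MCK-MRcko/mdx, and 12.39, 12.37 and 12.34 in Cre-/mdx quadriceps. Both knockouts lay wholly above the controls, by 1.29 and 1.02, and unlike Postn it overlapped between them. Stab1, of the same list, also lay wholly above the controls in both (0.82 and 0.51). Of 10 other matricellular genes listed, Spp1 and Ecm1 had no cluster carrying their symbol alone and were not read. The study itself reported Spp1 as higher in both knockouts than in Cre-/mdx. Of the 8 genes read, 0 were changed against Cre-/mdx. Of these, 3 (Mgp, Mfap5 and Cthrc1) lay wholly above the controls in LysM-MRcko/mdx, where 3.29% of all clusters did. Wholly above MCK-MRcko/mdx lay 4 of the 8 (background 3.72%), of which Mfap4, also in the study's myofibroblast list, was changed (1.30). Of 21 receptors for these proteins, 0 were changed against Cre-/mdx in either knockout, near the shares over all clusters of 0.376% with LysM-MRcko/mdx and 0.321% with MCK-MRcko/mdx. Integrin beta 5 (Itgb5), which pairs with the alpha v chain to bind periostin and other matrix proteins, measured 11.31, 10.96 and 11.07 in LysM-MRcko/mdx, 9.85, 10.19 and 10.26 in MCK-MRcko/mdx, and 10.18, 9.88 and 10.51 in Cre-/mdx quadriceps. It was changed between the knockouts, by 1.01, and stayed just under 2-fold against Cre-/mdx, at 0.92.

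Itgb5 was also among the genes whose values over the 9 arrays most resembled those of 3 members, by Pearson r over 17315 genes, which is given as a description because all points share the same arrays and groups. It had r = 0.963 with Tnc, 0.953 with Cilp and 0.941 with C1qtnf3. Tnc was as close to Col8a1, a short-chain collagen (0.963), C1qtnf3 to the crosslinking enzyme Loxl1 (0.932), Postn to Cthrc1, a secreted protein of activated fibroblasts (0.961), and Thbs4 to the collagen gene Col16a1 (0.931). Col16a1 varied little, from 5.71 to 5.95. Crtap, which helps hydroxylate collagen chains, was near both Olfml2b (0.970) and Sparc (0.954), but Sparc was closest to Frmd4a (0.981). Fn1 was closest to Piezo1 (0.959), a mechanically gated channel, and Thbs1 to Mindy3 (0.974), a deubiquitinase. The other genes among the 2 closest to each member were Myo7a (Postn, 0.945), Selenon (Fn1, 0.953), Cox6a1 (Cilp, 0.949) and Ccdc80 (Olfml2b, 0.960). For the thrombospondins those genes were Agfg1 (Thbs1, 0.971), Gm4482 and Mir5099 (Thbs2, 0.942 and 0.938) and Gm19757 (Thbs4, 0.927). Narrow ranges like that of Col16a1 were also seen, among others, in Myo7a (5.91 to 6.13), Selenon (6.90 to 7.38) and Frmd4a (6.23 to 6.71). Gm4482 (4.77 to 5.36) lay near the array medians.

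Markers of cell types that can make these proteins were read from the same arrays. Of 9 markers of activated fibroblasts, 4 (Lrrc15, Acta2, Loxl1 and Mmp14) were changed and higher in LysM-MRcko/mdx than in Cre-/mdx, where 0.234% of all clusters were. Loxl1 and Mmp14 are also in the study's list of myofibroblast genes, chosen on these samples. The difference was positive for 8 of the 9, the exception being Fap (-0.11). Timp1 and Lox lay wholly above the controls in both knockouts, by 0.86 and 0.88 in LysM-MRcko/mdx and 0.85 and 0.92 in MCK-MRcko/mdx. The mean level of the 9 was 9.84 to 10.19 in LysM-MRcko/mdx, 9.21 to 9.51 in MCK-MRcko/mdx and 8.90 to 9.39 in Cre-/mdx quadriceps. Of the 7 fibrillar collagen genes 0 were changed, and the list measured 10.99 to 11.27 in LysM-MRcko/mdx, 10.74 to 11.01 in MCK-MRcko/mdx and 9.91 to 11.02 in Cre-/mdx. Of 11 markers of resting fibroblasts and their progenitors 0 were changed against Cre-/mdx, with overlapping means of 11.80 to 12.55, 11.77 to 12.30 and 11.79 to 12.06 in the same order of groups.
The mean of 18 macrophage markers was higher in both knockouts, at 11.60 to 12.22, 11.65 to 11.68 and 10.34 to 10.98 in the same order of groups. Against Cre-/mdx, 11 of 18 were changed and higher in LysM-MRcko/mdx (background 0.234%) and 7 of 18 in MCK-MRcko/mdx (background 0.227%). The difference was positive for 18 in MCK-MRcko/mdx and for 16 in LysM-MRcko/mdx, the exceptions being Lyz2 (-0.10) and Cd163 (-0.01). Adgre1, Itgam and Ctss, called in both, are also in the study's list of genes changed in both knockouts, chosen on these samples. Of 9 markers of regenerating fibers, 3 (Myh3, Mymk and Chrna1) were changed and higher in LysM-MRcko/mdx than in Cre-/mdx, at means of 10.38 to 11.88, against 9.51 to 10.33 in MCK-MRcko/mdx and 9.62 to 10.20 in Cre-/mdx. The 8 tendon markers, of interest for Tnc and Thbs4, measured 9.33 to 9.66, 8.77 to 9.95 and 9.14 to 9.96 in these groups, with 0 changed. The mean of 8 markers of cartilage and bone, of interest for Cilp, was 4.76 to 4.95 over the mice of both knockouts and 4.72 to 4.84 in the controls. Among these markers the cartilage genes Acan (mean 3.90) and Col9a1 (4.49) lay below the median of every array, and the transcription factor gene Sox9 lay above it on each, at 7.13 to 8.45. Adipocyte markers averaged 10.13 to 11.64 in LysM-MRcko/mdx, 9.49 to 10.01 in MCK-MRcko/mdx and 9.22 to 11.62 in Cre-/mdx quadriceps, with 0 of 6 changed and a median difference of 1.32 between the knockouts. Endothelial markers averaged 9.42 to 9.66, 8.84 to 9.63 and 9.72 to 9.97 in the same order of groups. All 9 were lower in MCK-MRcko/mdx than in Cre-/mdx (median -0.73), where 47.3% of all clusters were higher. Of the 9, 1 was changed (Cdh5), at a background of 0.321%. Against Cre-/mdx, the counts of 0 changed in these marker lists are near the shares over all clusters (0.376% with LysM-MRcko/mdx and 0.321% with MCK-MRcko/mdx). They are no result about these lists. The part of any of these cell types in the differences of the 10 genes was not tested.

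**Figure D5:**
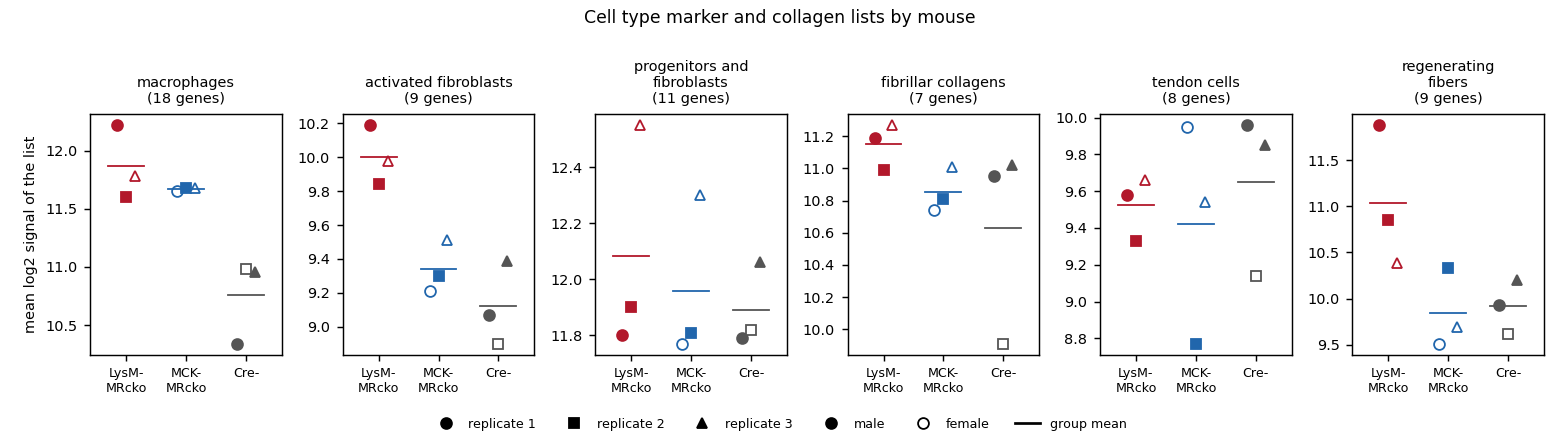
Mean log2 signal of the genes of 6 lists in each mouse, by group, with the group mean as a line. Shapes give the replicate number and open symbols are females. The mean of macrophage markers lies higher in both knockouts, that of activated fibroblast markers in LysM-MRcko/mdx, and fibrillar collagens are low in Cre-/mdx replicate 2 (9.91).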

How the data were processed

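RNA of 9 mouse quadriceps muscles (3 per group) was hybridised to Clariom D arrays, 1 per mouse. The authors deposited log2 values per transcript cluster, made with gene-level SST-RMA (background correction, normalization between arrays and summary over probes) in Affymetrix Expression Console, with versions and build not given in the sources used here. These log2 values were used as deposited, with no filter. Genes were named from the platform's probe annotation, in which 30450 clusters carry 1 symbol, 2151 several and 33071 none, and no symbol needed updating. Groups were compared in limma 3.58.1 (R 4.3.3), with a mean per group, all 9 arrays and eBayes, and p-values were adjusted by Benjamini-Hochberg over 65672 clusters. The procedure was tested on simulated data. Intervals are at 95%. Each array holds 1 mouse, so array number limits the precision, and 149 clusters sit at the top value of 19.93 on every array, none of them a member. Promoters were taken from RefSeq, 250 bases before to 50 after each start. Every member, the targeted gene, the genes called in each list and up to 3 others with the largest differences, and the 2 genes most like each member were open to naming. Members, lists and motifs were chosen with earlier results of these data known. Alternatives were a fit on 6 arrays, sex, the replicate block, quantile normalization, median centring, a filter on low clusters, robust eBayes and leaving out each mouse.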

Additional observations from a re-analysis of the deposited data

Results flagged for a closer look

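For Cilp, all 3 LysM-MRcko/mdx mice lay above the Cre-/mdx mean (by 1.40, 1.43 and 1.81) and all 3 MCK-MRcko/mdx mice below it (at -0.42, -0.39 and -0.21), with a difference of 1.89 between the knockouts. For Thbs2 the LysM-MRcko/mdx mice lay above it as well (by 0.39, 0.42 and 1.07) and the MCK-MRcko/mdx mice below it (at -0.20, -0.01 and -0.04), with a difference of 0.71, which is under 2-fold. Whether the 2 knockouts differ in direction from the controls was not tested beyond the difference between them. All MCK-MRcko/mdx values of Cilp lay within the range of the controls, and for Thbs2 replicate 1 (10.40) was just below the lowest control (10.42).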

How the results depend on the processing

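The number of members changed was 6 between LysM-MRcko/mdx and Cre-/mdx (4 to 6 when leaving out any 1 mouse), 0 between MCK-MRcko/mdx and Cre-/mdx (0 to 0) and 6 between the knockouts (5 to 7). The counts over all clusters ran from 135 to 560, 155 to 555 and 234 to 495 in these comparisons when leaving out 1 mouse, against 247, 211 and 282. Quantile normalization gave Fn1 a difference of -0.18 between MCK-MRcko/mdx and Cre-/mdx and took away its call against Cre-/mdx in LysM-MRcko/mdx (1.41). It also turned the split of higher against lower clusters to 115 and 99 (149 and 62 as deposited) for MCK-MRcko/mdx against Cre-/mdx, and to 212 and 91 (134 and 148) for LysM-MRcko/mdx against the other knockout. Leaving out single mice turned the sign of small differences: Thbs1 ran from -0.18 to 0.73 between LysM-MRcko/mdx and Cre-/mdx and from -1.36 to 0.02 between the knockouts, and between MCK-MRcko/mdx and Cre-/mdx Tnc ran from -0.14 to 0.62, Fn1 from -0.48 to 0.48, Olfml2b from -0.81 to 0.09 and Thbs4 from -0.77 to 0.13. Thbs4 between the knockouts was called with the 6 arrays of these groups (1.15), with quantile normalization (1.30), with median centring (1.15) and without replicate 2 of Cre-/mdx (1.15) or replicate 1 of MCK-MRcko/mdx (1.44). The causes were not tested. Replicate numbers did not pair the mice (correlations of -0.234 to 0.162). With the replicate block 6, 0 and 7 members were changed, Thbs4 (1.15) being the added one, and the counts of higher and lower clusters were 128 and 101, 114 and 50, and 116 and 149. Co-variation without Cre-/mdx replicate 2 or with sex removed, and co-variation and sex differences under quantile normalization and median centring, were chosen after seeing the data, and under these 2 normalizations 0 of 45 pairs passed an adjusted p of 0.05.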
